A study of Mus musculus with 90 samples.

Results

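The genes of the hedgehog signalling pathway examined here were the 3 ligands Shh, Ihh and Dhh, the receptor Ptch1 and the transducer Smo, the ligand-binding decoy Hhip, and the 3 Gli transcription factors Gli1, Gli2 and Gli3. These 9 genes were chosen by name and found by their Entrez identifiers among 20414 genes in an expression matrix of 90 RNA-seq libraries. The libraries came from 15 tissues of female C57BL/6 mice (C57BL/6J in the study's methods), labelled as 10 weeks old, in estrus or in diestrus (3 libraries for each combination). The labels give no treatment or genotype beyond the strain, and the phase was read from methylene blue stained vaginal smears, with serum estrogen and progesterone measured as an aid. No hormone value per library is given in the labels. RNA came from whole tissue, so fewer cells of a type and less RNA per cell cannot be told apart in any value below. The tissues were dissected from the same mice, 3 per phase, but the labels do not say which libraries share an animal. The fits treat the 90 libraries as independent, so p-values of comparisons between tissues do not account for shared animals.

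Hedgehog ligands are secreted, lipid-modified proteins that usually pass from an epithelium or a Schwann cell to the mesenchyme around it. Without ligand, Ptch1 holds Smo inactive. When a ligand binds Ptch1, Smo is released and the Gli factors switch on target genes, among them Gli1 and Ptch1 themselves, so the transcript levels of Gli1 and Ptch1 are commonly read as a measure of pathway activity. Gli2 is mainly the activator, Gli3 is mainly the repressor, and Hhip binds the ligands at the cell surface. In the uterus Ihh is made by the epithelium under progesterone and acts on the stroma, in the ovary Ihh and Dhh come from granulosa cells, and in the stomach and intestine Shh and Ihh come from the epithelial lining.

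Promoter sequences are shown to give the start sites of these genes and the range of their base composition. RefSeq start sites (GRCm38.p6) were matched for 7 of the 9 genes. The 250 bases before the start are printed for Ihh, the main uterine ligand, and for Ptch1 and Dhh, which had the highest and the lowest share of G and C among the 7. They are in lower case, 5′ to 3′ on the gene's strand, with CG dinucleotides in capitals.
Ihh (chr1:74951673-74951922, minus strand): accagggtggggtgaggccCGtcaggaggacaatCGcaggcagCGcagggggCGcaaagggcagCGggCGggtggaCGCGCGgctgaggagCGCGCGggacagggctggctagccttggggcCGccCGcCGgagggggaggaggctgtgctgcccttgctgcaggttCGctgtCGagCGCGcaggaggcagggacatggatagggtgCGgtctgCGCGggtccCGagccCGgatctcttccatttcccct
Ptch1 (chr13:63565736-63565985, minus strand): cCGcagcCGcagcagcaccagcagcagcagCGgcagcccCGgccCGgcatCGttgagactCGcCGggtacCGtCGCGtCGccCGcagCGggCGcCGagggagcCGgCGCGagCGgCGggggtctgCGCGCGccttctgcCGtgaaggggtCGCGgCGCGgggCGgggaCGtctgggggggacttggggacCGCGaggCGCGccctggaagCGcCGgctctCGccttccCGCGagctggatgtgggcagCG
Dhh (chr15:98898541-98898790, minus strand): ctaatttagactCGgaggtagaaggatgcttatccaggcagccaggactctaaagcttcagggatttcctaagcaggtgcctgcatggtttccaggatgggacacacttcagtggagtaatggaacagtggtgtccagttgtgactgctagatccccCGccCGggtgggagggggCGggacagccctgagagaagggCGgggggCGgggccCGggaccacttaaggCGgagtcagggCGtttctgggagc
Ptch1 held 41 CG dinucleotides at 78.4% G and C, Ihh held 24 at 72.0%, and Dhh held 9 at 59.6%. Between these lay Hhip with 28 at 76.0%, Gli3 with 34 at 72.8%, Smo with 15 at 68.4% and Gli2 with 22 at 67.2%, while the median over 19728 promoters was 11 at 56.4%. The Gli core motif GACCACCCA, searched on both strands, was found in 0 of the 7 windows and in 0.167% of all promoters, which says only that these letters are not in these windows.

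Several libraries stood apart in the summed FPKM (fragments per kilobase of transcript and per mapped library size, a level corrected for length and depth) of marker lists. Duodenum estrus replicate 1 carried 52477 FPKM of 5 gastric chief and pit cell markers, against 0.66 to 26.9 in the other duodenum libraries, and its 3 parietal cell markers summed to 1.22. It also had the highest B cell and smooth muscle sums and the lowest enterocyte sum, 3631 against 5746 to 15043. Uterus estrus replicate 3 carried 2717 FPKM of oviduct markers against 24.4 to 127, and 2214 of squamous markers against 0.35 to 68.0. Uterus estrus replicate 1 had the highest smooth muscle sum, 5579 against 1112 to 3458. Stomach estrus replicates 1 and 3 had squamous sums of 4008 and 6830 against 9.24 to 938, and aorta estrus replicate 1 had a smooth muscle sum of 15868 against 1702 to 2533. Adipocyte markers summed to 11683 to 16029 in the other 5 aorta libraries. The defining markers of the labelled tissues were present, with enterocyte, neuron, hepatocyte, proximal tubule and granulosa cell lists abundant in their own tissues. One BAT (brown adipose tissue) library, estrus replicate 3, was of very low depth and listed 12048 genes at 0, against 2404 to 4820 in the other 89.

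The 3 ligands had different tissues. Shh, the ligand of neural tube and gut patterning, was highest in stomach at 14.9 ± 4.37 FPKM (SD, n = 6), followed by hypothalamus at 5.98 ± 0.790, cerebrum at 1.49 ± 0.395 and kidney at 1.21 ± 0.216. In duodenum the mean of 2.43 ± 5.43 came from estrus replicate 1 alone, at 13.5, with the other 5 libraries at 0.04 to 0.54. Shh was listed at 0 in all 6 uterus libraries. Stomach and hypothalamus differed by more than the larger SD, and hypothalamus exceeded cerebrum in every library. Because of its one high library, duodenum could not be placed against hypothalamus or cerebrum beyond its spread, and cerebrum and kidney differed by less than the larger SD.

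Ihh, the ligand of endometrium, gut and growth plate, had the highest levels of any ligand. It averaged 41.8 ± 30.1 FPKM in uterus, 34.8 ± 4.69 in duodenum and 33.2 ± 5.04 in ovary, and these 3 tissues did not differ beyond their spread. Stomach (18.7 ± 3.87) and kidney (15.9 ± 3.41) followed and were alike within their spread, and liver was at 1.35 ± 0.342. Dhh, the ligand of Schwann, Sertoli and granulosa cells, was highest in ovary at 9.42 ± 1.75 and vein at 7.98 ± 3.94, which overlapped, with aorta next at 2.15 ± 1.11. Outside the brain the Schwann cell marker sums were also highest in vein, at 359 to 762 FPKM against 76.9 to 391 in aorta, and vein held 160 to 348 FPKM of 3 neuron markers. Their part in the Dhh level was not tested. Of the summed ligand FPKM, Ihh took 98.3% in uterus, 92.9% in duodenum, 90.8% in kidney and 77.8% in ovary. Shh took 43.8% in stomach, where Ihh took 55.1%, and 96.6% in hypothalamus, whereas Dhh took 95.5% in vein.

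**Figure D1:**
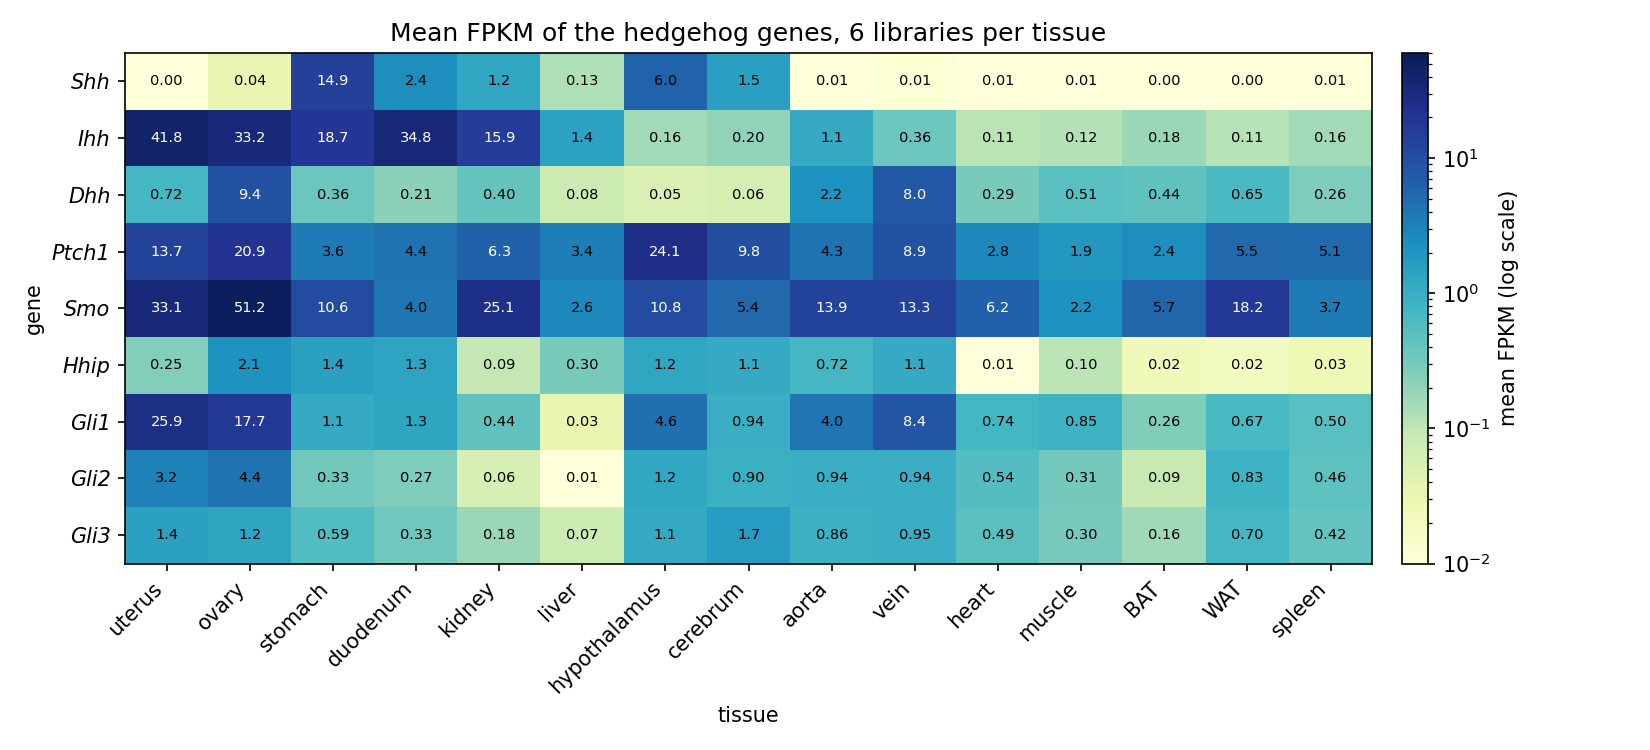
Mean FPKM of each hedgehog gene (rows) in each of the 15 tissues (columns), 6 libraries per tissue, coloured on a log scale. Ihh was at 41.8 in uterus and 34.8 in duodenum while Shh was at 0 in uterus, and Gli1 was at 25.9 in uterus and 17.7 in ovary.

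The receptor and the transducer were broad, and the Gli factors were more restricted. Gli1 reached a mean of 1 FPKM in uterus, ovary, stomach, duodenum, hypothalamus, aorta and vein. Gli2 did so in uterus, ovary and hypothalamus, and Gli3 in the same tissues and cerebrum. Ptch1 averaged 24.1 ± 1.82 FPKM in hypothalamus and 20.9 ± 3.20 in ovary, 13.7 ± 9.03 in uterus, and 1.89 in muscle, its lowest tissue. Smo was highest in ovary at 51.2 ± 1.84, above uterus at 33.1 ± 6.15 with no overlap of the libraries, and lowest in muscle at 2.24. Gli1, the target most closely tied to pathway output, averaged 25.9 ± 25.2 in uterus and 17.7 ± 3.92 in ovary, which were not distinguishable, 8.38 ± 2.54 in vein and 1.06 ± 0.182 in stomach. Stomach and duodenum, with abundant ligand, had Gli1 at no more than 2.07 FPKM in each of their 12 libraries, while vein, whose Dhh was below the Ihh of either gut tissue on average, had 4.90 to 12.5. Gli2 was highest in ovary (4.37 ± 0.641) and uterus (3.22 ± 1.18), and both lay above hypothalamus (1.198 ± 0.0962) in every library. Gli3 was low throughout, at most 1.67 ± 0.276 in cerebrum, followed by uterus (1.43 ± 0.978) and ovary (1.25 ± 0.145), and uterus differed from neither of them by more than its own SD. The decoy Hhip was highest in ovary (2.08 ± 0.418), stomach (1.43 ± 0.558) and duodenum (1.29 ± 0.729), and at 0.252 ± 0.171 in uterus.

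Across the 15 tissue means on the log2(FPKM + 1) scale, Gli1 and Gli2 had a Pearson r of 0.91, Gli2 and Gli3 of 0.83 and Ptch1 and Gli1 of 0.73, whereas Shh and Dhh had -0.35. These describe 15 points that share libraries and are not tests. Among 17290 genes, those most like each member by r were Sox21 (0.93), Rab27b (0.93) and Clic6 (0.92) for Shh, Large2 (0.94), Frk (0.94) and Esrp1 (0.93) for Ihh, and Angpt4 (0.99), Fst (0.92) and Sfrp4 (0.91) for Dhh. The genes most like Ptch1 were Ebf4 (0.96), Rab36 (0.95) and Zfp105 (0.94), and those most like Smo were Tmem115 (0.92), Fndc3b (0.91) and Bnc2 (0.90). Gli1 was most like Stc1 (0.92), Ccdc24 (0.91) and B3gnt4 (0.91), Gli2 like Spef1l (0.94), Mex3d (0.94) and Agtr2 (0.94), Gli3 like Arhgef25 (0.97), Ptprs (0.96) and Gpr161 (0.95), and Hhip like Rpp25 (0.87), Foxp2 (0.87) and Tmtc2 (0.85).

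To ask where the pathway was enriched, each of uterus, stomach and duodenum was compared with the mean of the other 14 tissues by limma on log2(FPKM + 1) over 17289 genes. A gene was called at a log2 difference of at least 1 and a Benjamini-Hochberg adjusted p of at most 0.05. In uterus 4 of the 9 genes were called higher and 0 lower, against 15.4% and 5.67% of all genes tested. The differences were 3.05 ± 0.232 (SE) for Ihh (limma adjusted p = 1.43e-18), 2.55 ± 0.182 for Gli1 (7.84e-20), 1.83 ± 0.132 for Smo (1.29e-19) and 1.35 ± 0.0953 for Gli2 (5.39e-20). These errors rest on one spread shared by all tissues. For Ihh, Gli1 and Gli2 it was smaller than the pooled within-phase SD of uterus (1.94, 1.45 and 0.40). Their errors and p-values thus understate the variation between uterus libraries. Ptch1 was 0.96 ± 0.102 higher, just under the fold limit, and was called under some omissions of a replicate (0.77 to 1.07). The median over the 9 was 0.96 against 0.24 over all genes.

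In stomach the ligands alone were called: Shh was 3.49 ± 0.174 higher (limma adjusted p = 1.68e-27) and Ihh 2.66 ± 0.232 higher (3.77e-16), so that 2 of 9 were called higher against 11.4% of all genes, and 0 lower against 10.5%. In duodenum Ihh was 3.59 ± 0.232 higher (limma adjusted p = 4.05e-22) and Smo 1.19 ± 0.132 lower (2.14e-12), 1 gene in each direction against 13.0% higher and 15.2% lower. The receptor and the Gli factors were not called higher in either gut tissue. Directly compared, stomach exceeded duodenum in Shh by 3.08 ± 0.238 (limma adjusted p = 4.65e-18) and in Smo by 1.14 ± 0.180 (1.77e-07), with 9.67% of all genes called higher and 9.47% lower. The shared spread was smaller than the pooled within-phase SD of Shh in duodenum (1.54) and of Smo in stomach (0.70). Both errors thus understate the variation between those libraries. Without duodenum estrus replicate 1 the Shh difference was 3.71, and without stomach estrus replicate 1 the Smo difference was 0.99, below the fold limit. Ihh was 0.87 ± 0.317 lower in stomach than in duodenum (limma adjusted p = 0.0189), short of the fold limit.

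**Figure D2:**
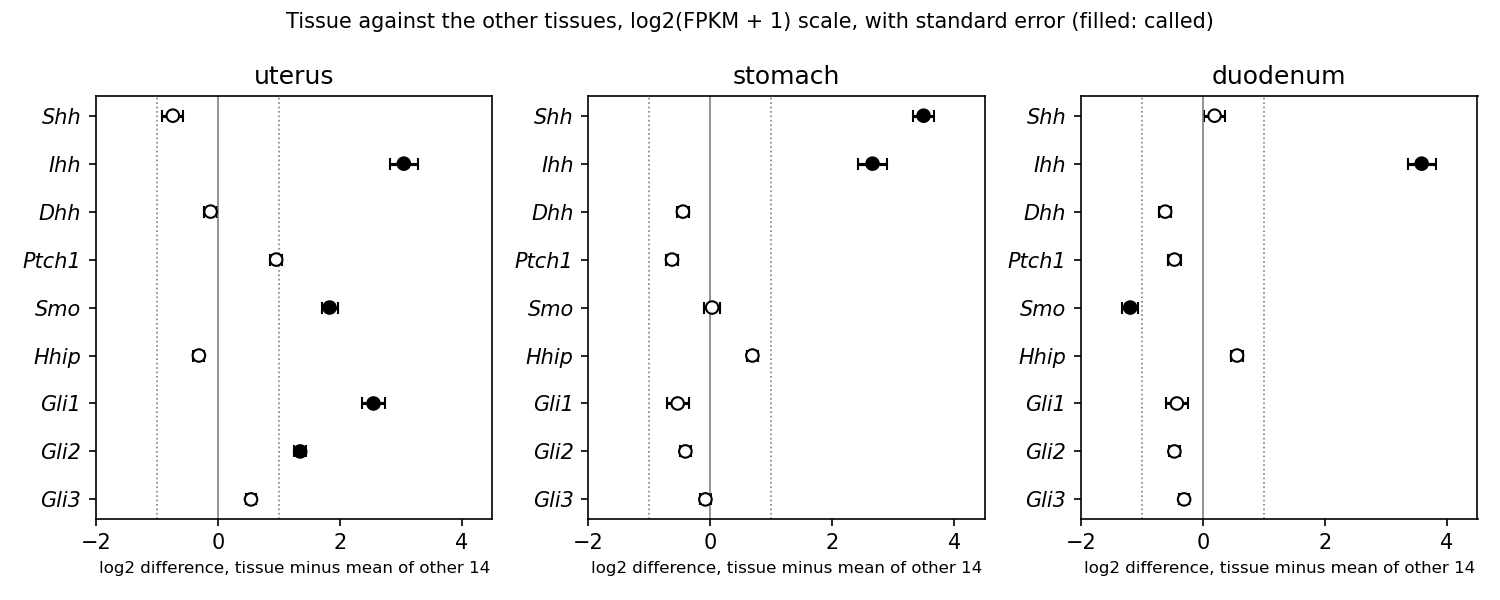
Log2 difference of each hedgehog gene between uterus, stomach or duodenum and the mean of the other 14 tissues (limma, log2(FPKM + 1) scale, bars are standard errors, filled points are called, dotted lines mark the fold limit). Ihh was called higher in all 3 tissues, Shh in stomach, and Gli1, Gli2 and Smo in uterus.

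Of 42 further pathway genes tested, 11 were called higher in uterus and 0 lower, against the 15.4% and 5.67% of all genes. They included the coreceptor Gas1 (2.30), which helps ligands reach Ptch1 and averaged 61.6 ± 28.1 FPKM there, the coreceptor Cdon (1.54; 9.41 ± 2.26 FPKM), the ligand-release factor Scube1 (1.82), the stromal factors Hand2 (2.40), Nr2f2 (1.64) and Osr1 (1.41), and the growth genes Wnt5a (3.02), Mycn (2.63) and Ccnd1 (1.19). The ciliary genes Tulp3 (1.21) and Ift88 (1.14) completed the 11. Ift88 was at 35.4 FPKM in uterus estrus replicate 3, the library with oviduct markers, and at 6.19 to 8.55 in the other uterus libraries. In stomach 7 were higher and 2 lower, against 11.4% and 10.5% of all genes. They were led by Barx1 (3.87), a mesenchymal factor of the stomach, and Bmp2 (2.75), with Foxf1 (1.95), Foxf2 (1.88), Bmp5 (1.50), Nr2f2 (1.29) and Hand2 (1.25), and the lower ones were Prkaca (-1.35) and Mycn (-1.05). In duodenum 5 were higher and 10 lower, against 13.0% and 15.2% of all genes. The higher ones were Nkx2-3 (3.22), Bmp2 (2.07), Foxf2 (1.93), Foxf1 (1.89) and Bmp5 (1.14), and among the lower were Nr2f2 (-2.13), Gpc3 (-2.07), Gas1 (-1.74), the coreceptor Boc (-1.06) and the ciliary genes Kif3a (-1.65), Evc2 (-1.55), Tulp3 (-1.40) and Evc (-1.37). Between stomach and duodenum, Barx1 (3.22), Nr2f2 (3.19), Gpc3 (1.41) and Ccnd1 (1.13) were called higher in stomach and Nkx2-3 (-2.60) lower, or 4 and 1 of 42 against 9.67% and 9.47% of all genes. Barx1 was at 21.6 FPKM in duodenum estrus replicate 1 and at 0 in the other 5 duodenum libraries.

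The phases were then compared within each tissue, which asks whether the cycle moves the pathway. A member entered the test where its mean over the 6 libraries reached 1 FPKM, which 65 of 135 member and tissue pairs did. None was called by limma, 8 had an unadjusted p under 0.05, and in 13 the phases were without overlap, with diestrus higher in 9 and estrus higher in 4. Over all genes and tissues 7.84% of pairs had such a p and 15.0% were without overlap. With 3 libraries against 3 an exact permutation test cannot fall below a p of 0.1. The limma p-values weigh each difference against the spread between these libraries, moderated by that of all genes tested.

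In uterus the ligand, the receptor and Gli1 all had lower means in estrus, with very unequal libraries. Ihh was at 0.39, 54.5 and 14.5 FPKM in estrus replicates 1, 2 and 3 and at 55.2, 83.2 and 42.6 in the diestrus libraries. The phases overlapped because estrus replicate 2 lay within the diestrus range, while replicate 1 had almost no Ihh. Its simple epithelium markers summed to 1411 FPKM, against 1400 and 1548 in the other estrus libraries and 635 to 1964 in diestrus. The part of epithelial content in the Ihh values was not tested. On the log2(FPKM + 1) scale Ihh was -2.48 ± 1.21 (SE) in estrus against diestrus (limma adjusted p = 0.897), and -1.01 without estrus replicate 1.

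Gli1 had the same order of libraries in estrus. It stood at 1.10, 24.4 and 2.75 FPKM in estrus against 35.9, 21.7 and 69.5. Replicate 2 of estrus was again within the diestrus range, and the other estrus libraries were far below it. The log2 difference was -2.73 ± 0.919 (limma adjusted p = 0.897), and was -3.79 without estrus replicate 2. Without estrus replicate 3, the library with oviduct markers, it was -2.41, and that of Ihh was -2.75.

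Ptch1 was the one tested member whose phases did not overlap, at 5.45, 10.2 and 7.54 FPKM in estrus against 13.6, 14.6 and 30.7. The highest diestrus library, replicate 3, was far above the others, and without it the log2 difference of -1.18 ± 0.378 (limma adjusted p = 0.897) became -0.83. 1 of 6 tested members without overlap and higher in diestrus compares with 4.67% of all genes, and 2 of 6 with an unadjusted p under 0.05 with 3.74%. The study had already reported Ihh, Dhh, Ptch1 and Gli1 as lower in estrus uterus from these data. These shares are therefore not independent of the choice of genes. By limma 0 of 13705 genes passed the adjusted threshold in uterus (0%).

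Smo, Gli2 and Gli3 did not have estrus replicate 2 standing above the other estrus libraries. Smo was at 25.3, 36.3 and 40.0 FPKM in estrus against 32.0, 26.8 and 38.5, fully overlapping, with a log2 difference of 0.05 ± 0.272 (limma adjusted p = 0.976). Gli2 was at 2.44, 2.80 and 3.06 in estrus against 3.88, 1.92 and 5.22 in diestrus. Gli3 was at 1.21, 1.13 and 0.55 in estrus against 1.21, 1.12 and 3.36, with diestrus replicate 3 far above the other libraries. Dhh and Hhip averaged under 1 FPKM and were not tested. Hhip was at 0.02, 0.20 and 0.12 in estrus and 0.42, 0.29 and 0.46 in diestrus, and Dhh was at 0.23, 0.71 and 0.19 against 1.49, 0.71 and 1.01. Both had estrus replicate 2 as the highest estrus library, and the phases of Hhip did not overlap at these low levels. 5 of the 6 tested members, Smo being the exception, had a lower log2 mean in estrus, with a median of -0.84 against -0.07 over all genes.

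**Figure D3:**
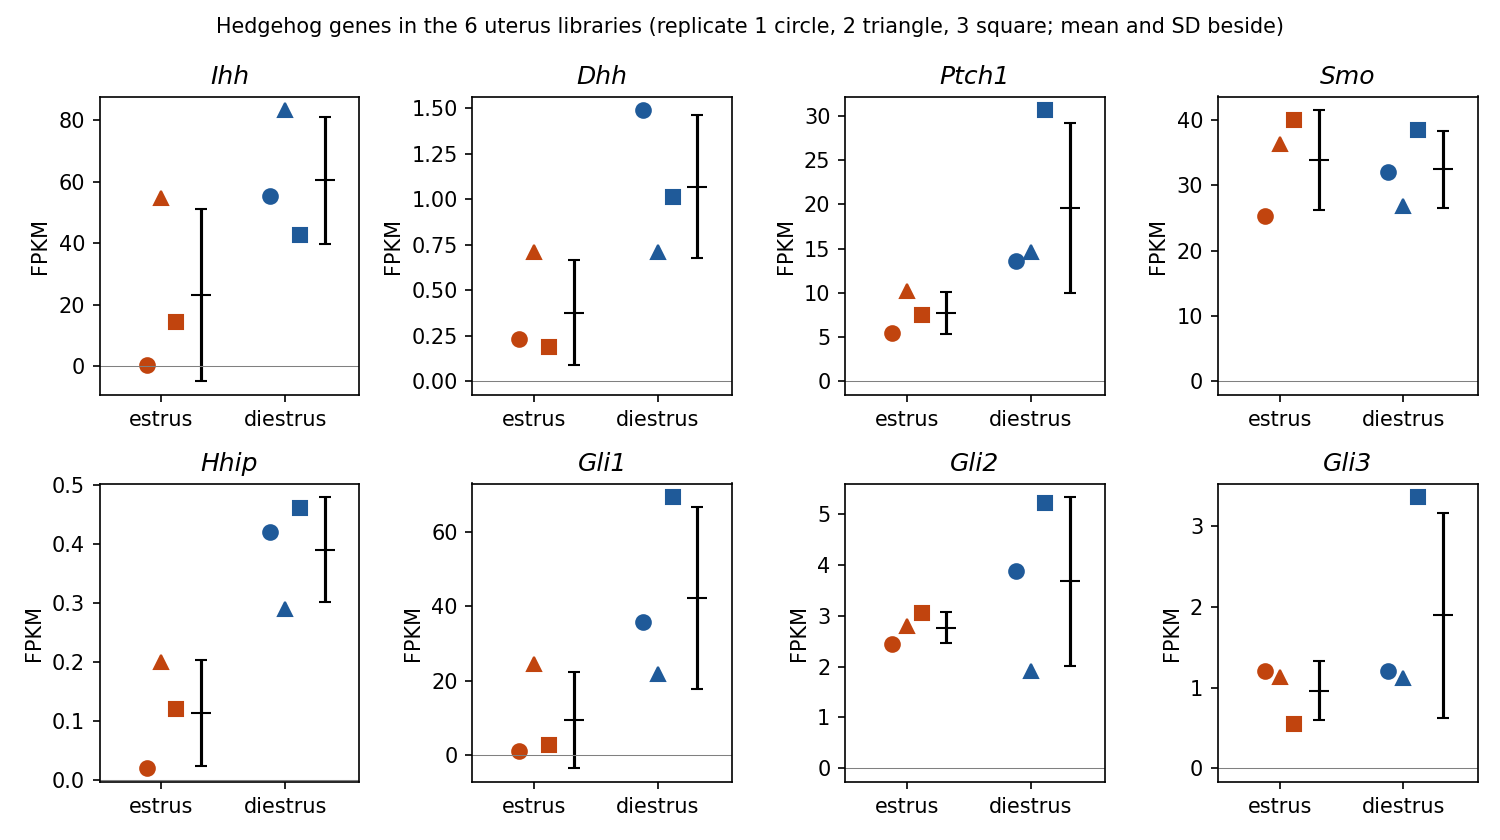
FPKM of 8 hedgehog genes in the 6 uterus libraries (points, estrus and diestrus on the horizontal axis, marker shape gives the replicate), with the mean and SD of each phase beside them. Ptch1 did not overlap between the phases, while estrus replicate 2 (triangle) lay within the diestrus range for Ihh and Gli1.

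The spread between libraries of one phase was wide in uterus for several members. The pooled within-phase SD on the log2(FPKM + 1) scale was higher in uterus than in each of the other 14 tissues for Ihh (1.94), Gli1 (1.45), Ptch1 (0.52) and Gli3 (0.46). By the same SD uterus ranked 2 of 15 for Gli2 and 5 for Smo. The ranking was not made over all genes, so it does not set these members apart from other genes of the uterus. When all 90 libraries were fitted together, so that the tissues shared one spread, the same differences in Ihh, Gli1 and Ptch1 were called (limma adjusted p of 6.11e-05, 3.07e-08 and 1.39e-05). That fit called 908 genes in uterus, against 0 when uterus was fitted alone. For these members the shared spread was smaller than that of the uterus, so these p-values understate the variation between uterus libraries. Tissue makeup also moved between these libraries. Diestrus replicate 3 had the lowest simple epithelium sum (635), and estrus replicate 1 and diestrus replicate 3 had the highest fibroblast sums, 2238 and 1717 against 412 to 990. The part of makeup in the differences was not tested.

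Of 38 other pathway genes tested in uterus 0 were called by limma, 4 had an unadjusted p under 0.05 (3.74% of all genes), 4 were without overlap and higher in diestrus (4.67% of all genes), and the median was -0.15. The stromal factor Osr1 was at 4.59, 6.12 and 3.05 FPKM in estrus against 11.9, 10.3 and 28.6 in diestrus (-1.58 ± 0.425, limma adjusted p = 0.897). Scube1 was at 0.56, 13.2 and 1.10 against 28.6, 10.5 and 18.8, and Wnt5a at 16.7, 42.6 and 17.1 against 57.2, 53.6 and 46.0. Both thus had estrus replicate 2 as the highest estrus library, as Ihh and Gli1 did. Mycn was the other way round, with 60.2, 19.8 and 13.3 in estrus and 16.3, 9.27 and 1.56 in diestrus (1.77). Among genes of the progesterone response, the epithelial receptor Lrp2 was at 0.26, 4.13 and 1.81 in estrus and 14.7, 54.6 and 81.0 in diestrus, the widest difference of that list at -3.98 ± 0.730 (limma adjusted p = 0.897). The progesterone receptor Pgr was at 11.6, 68.8 and 10.2 against 53.5, 98.7 and 32.7, again with estrus replicate 2 high. Of the rest of that list, Lrp2, Hoxa10, Hoxa11 and Fkbp5 also had estrus replicate 2 as the highest estrus library, whereas Esr1, Areg, Fst and Il13ra2 did not. Areg alone had a higher log2 mean in estrus (0.10).

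In stomach no tested member was called between the phases. Ihh was at 16.7, 15.8 and 17.4 FPKM in estrus against 26.4, 17.9 and 18.1, without overlap but with diestrus replicates 2 and 3 just above the highest estrus library, and its log2 difference was -0.29 ± 0.170 (limma adjusted p = 0.700). Without diestrus replicate 1 the Ihh difference was -0.11. Hhip was at 1.31, 1.33 and 0.49 in estrus and 2.16, 1.54 and 1.75 in diestrus, also without overlap, at -0.49 ± 0.234 (limma adjusted p = 0.692). 2 of 6 tested members without overlap and higher in diestrus compare with 12.0% of all genes, and 0 of 6 had an unadjusted p under 0.05, against 7.38%.

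Shh was at 11.1, 13.6 and 22.9 FPKM in estrus against 16.0, 11.2 and 14.6, overlapping, and its small difference (0.13 ± 0.281, limma adjusted p = 0.870) changed sign without estrus replicate 3 or without diestrus replicate 2. Smo was at 18.7, 5.09 and 16.9 in estrus and 8.83, 8.50 and 5.69 in diestrus. The high Smo libraries, estrus replicates 1 and 3, were those with high squamous markers. Smooth muscle marker sums also ranged widely over the stomach libraries, from 329 to 6797. Barx1 and Hand2 were highest in estrus replicate 1, at 47.4 and 38.0 FPKM. The part of any of these cell types in the Smo values was not tested. The Smo difference of 0.59 ± 0.474 was 0.29 without replicate 1 and 1.13 without replicate 2. Ptch1 (-0.17 ± 0.167) and Gli1 (-0.14 ± 0.167) overlapped between the phases. Of 34 other pathway genes 0 were called by limma and 0 had an unadjusted p under 0.05, against 7.38% of all genes. The widest difference was that of Gas1, at 44.2, 0.97 and 15.9 in estrus against 8.35, 3.91 and 1.65, where estrus replicates 1 and 3 were again the high libraries.

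In duodenum Ptch1 and Gli1 were lower in estrus without overlap, in a tissue where many genes were. Ptch1 was at 2.51, 2.18 and 4.37 FPKM in estrus against 6.50, 5.51 and 5.07 (-0.77 ± 0.251, limma adjusted p = 0.368), and Gli1 at 1.28, 0.35 and 1.02 against 1.56, 2.07 and 1.34 (-0.52 ± 0.273, limma adjusted p = 0.411). 2 of 6 members compare here with 22.1% of all genes without overlap and higher in diestrus, and 1 of 6 with an unadjusted p under 0.05 with 13.5%. Without estrus replicate 1, the library with gastric markers, the differences were -0.69 for Ptch1 and -0.68 for Gli1, and neither was called. The median over the 6 members was -0.52, against -0.16 over all genes tested in duodenum.

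The ligands did not follow. Ihh was at 27.1, 34.2 and 39.8 FPKM in estrus against 32.3, 36.4 and 38.8, a difference of -0.10 ± 0.185 (limma adjusted p = 0.816). Shh entered the test through estrus replicate 1 alone, at 13.5, and the other 5 libraries lay between 0.04 and 0.54. Smo was at 4.80, 1.53 and 3.15 in estrus and 4.69, 5.06 and 4.61 in diestrus, with estrus replicate 2 the lowest, and overlapped. Hhip was at 0.21, 0.63 and 2.07 against 1.57, 1.89 and 1.39 and overlapped as well. Of 30 other pathway genes 0 were called by limma and 3 had an unadjusted p under 0.05, near the 13.5% of all genes. The cell cycle gene Ccnd1 was at 13.1, 2.65 and 12.8 in estrus against 22.9, 20.6 and 17.8 in diestrus (-1.26, limma adjusted p = 0.368).

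**Figure D4:**
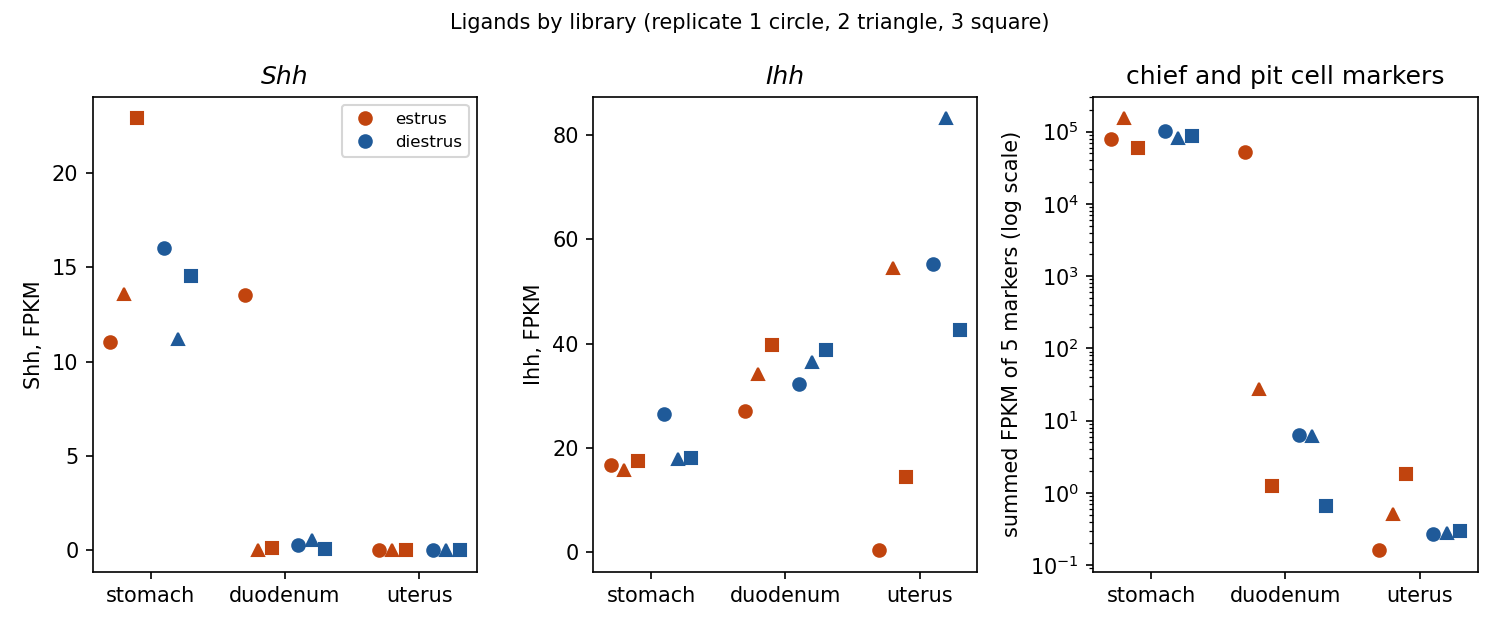
Shh (left) and Ihh (middle) FPKM in each stomach, duodenum and uterus library, with the summed FPKM of 5 gastric chief and pit cell markers on a log scale (right), colours giving the phase and shapes the replicate. The single duodenum library with high Shh (13.5 FPKM, estrus replicate 1) was also the one with gastric markers (52477 FPKM), while Ihh in that library was 27.1.

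In vein all 5 tested members had lower estrus means on the log2 scale, as did 8870 of the 13239 genes tested there. Dhh was at 7.06, 4.23 and 5.98 FPKM in estrus against 7.13, 15.6 and 7.91, without overlap by a narrow margin, and diestrus replicate 2 was far above the rest (log2 difference of -0.68 ± 0.297, and -0.36 without that library). Ptch1 was at 6.63, 6.68 and 8.06 against 11.3, 10.9 and 9.51 (-0.51 ± 0.126, limma adjusted p = 0.412), and Smo at 12.1, 10.4 and 12.1 against 14.04, 18.3 and 12.8. Gli1 was at 6.98, 4.90 and 8.37 against 9.52, 12.5 and 8.06 and overlapped (-0.51 ± 0.217, limma adjusted p = 0.412). 3 of 5 members without overlap and higher in diestrus compare with 12.9% of all genes, and 2 of 5 with an unadjusted p under 0.05 with 12.1%. None of the 5 was called by limma, and their median was -0.51 against -0.10 over all genes. Of 35 other pathway genes 32 had lower estrus means and 12 did not overlap, against the shares of all genes given above, among them Cdon (-0.59), Scube1 (-0.56) and Osr1 (-0.77), and 0 were called. Fibroblast markers in vein summed to 642 to 1030 in estrus and 1070 to 1874 in diestrus, 5 markers without overlap, while adipocyte markers were at 9489 to 12663 against 6844 to 11536. Their part in the hedgehog differences was not tested.

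In ovary, where Smo, Gli2, Dhh and Hhip were highest, the phases overlapped for all 8 tested members, while 13.7% of all genes there were without overlap. Ihh was at 31.9, 36.7 and 27.1 FPKM in estrus against 41.2, 32.1 and 29.97, and Dhh at 10.9, 11.2 and 6.67 against 9.92, 9.87 and 8.01. Smo stayed between 49.5 and 54.5 in the 6 libraries. The widest difference was that of Ptch1, at 22.9, 20.4 and 25.8 against 20.8, 19.0 and 16.5 (0.28 ± 0.128, limma adjusted p = 0.838). Ovary estrus replicate 3, lowest for Ihh and Dhh and highest for Ptch1, stood apart in other genes. Its Esr1 was 23.15 FPKM against 5.70 to 7.56 in the other ovary libraries. Pgr was 4.35 against 0.19 to 0.55, and Hoxa10 2.28 against 0.20 to 0.32. The part of tissue makeup in the ovary values was not tested. The other 3 members with an unadjusted p under 0.05 were in other tissues. Gli1 in hypothalamus was at 4.75, 5.20 and 5.48 in estrus against 4.59, 4.27 and 3.60 (0.26 ± 0.0902, limma adjusted p = 0.313; 9.96% of all genes there were without overlap and higher in estrus). Smo in liver was at 3.63, 2.68 and 2.99 against 2.56, 2.27 and 1.73 (0.37 ± 0.135, limma adjusted p = 0.811; 4.48%). Smo in muscle was at 2.01, 1.68 and 1.67 against 2.61, 2.65 and 2.81 (-0.41 ± 0.0910, limma adjusted p = 0.102), in a tissue where 21.9% of all genes were without overlap and higher in diestrus.

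**Figure D5:**
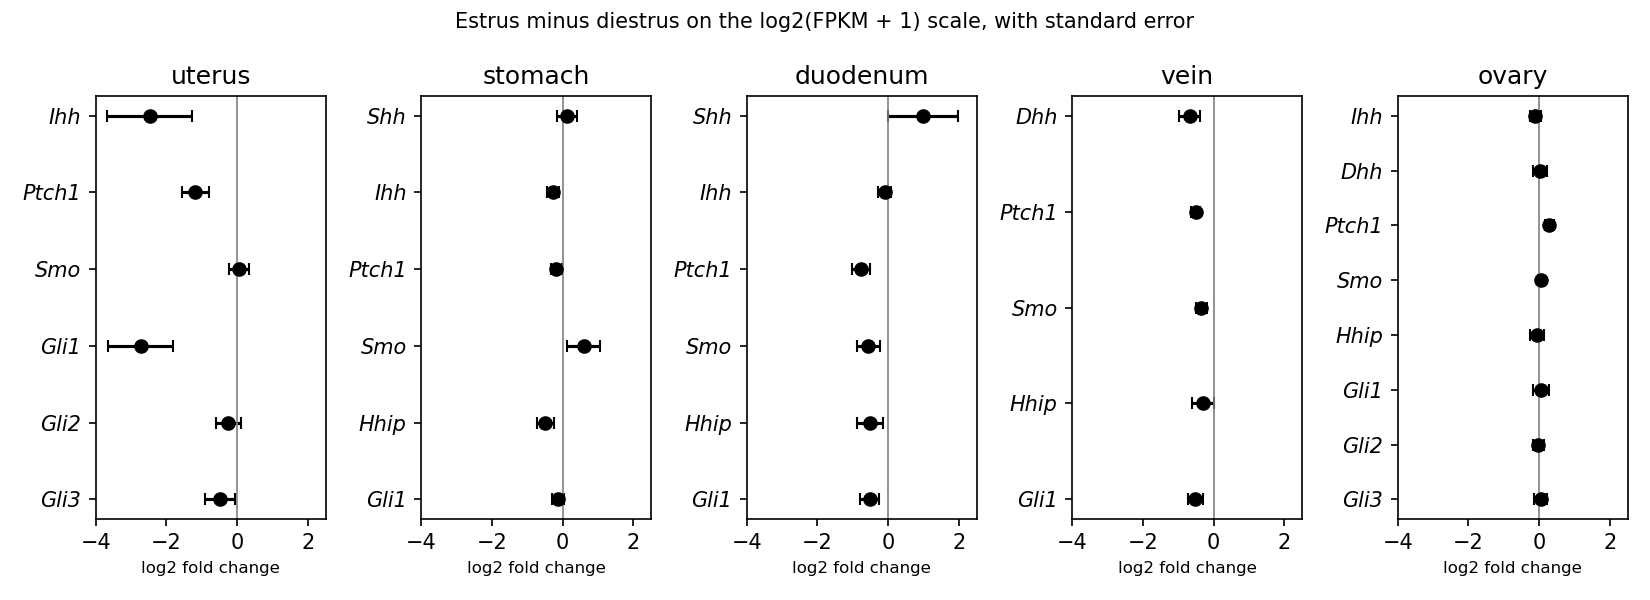
Log2 fold change of estrus against diestrus for the hedgehog genes tested in uterus, stomach, duodenum, vein and ovary (limma, log2(FPKM + 1) scale, bars are standard errors). The uterine values for Gli1 (-2.73), Ihh (-2.48) and Ptch1 (-1.18) lay farthest below 0, and the ovary values lay near 0.

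Whether the phase difference itself differed between tissues was tested in the fit of all 90 libraries. Between uterus and stomach, 4 of the 9 genes passed an adjusted p of 0.05 against 5.36% of all genes: Gli1 (-2.60 ± 0.497, limma adjusted p = 0.00036), Ihh (-2.19 ± 0.634, 0.0263), Ptch1 (-1.01 ± 0.279, 0.0194) and Gli3 (-0.89 ± 0.238, 0.0151). Between uterus and duodenum, Gli1 (-2.21 ± 0.497, limma adjusted p = 0.00249) and Ihh (-2.38 ± 0.634, 0.0134) passed, against 5.83%. In each the estrus difference was the more negative in uterus. Between stomach and duodenum Smo passed, at 1.15 ± 0.361 (limma adjusted p = 0.0429), against 5.81%, but not when stomach estrus replicate 1 or 3 was left out. For Gli1, Ihh, Ptch1 and Gli3 the shared spread was smaller than that of the uterus. For Smo it was smaller than the pooled within-phase SD of stomach (0.70) and of duodenum (0.43), so its p-value understates the variation there. Without uterus estrus replicate 1 the Ihh differences were -0.73 against stomach and -0.91 against duodenum and no longer passed, without stomach estrus replicate 1 a single member, Gli1, passed between uterus and stomach, and without diestrus replicate 3 in every tissue 0 members passed in any of the 3 comparisons.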

How the data were processed

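RNA was extracted from 15 tissues of mice in estrus or diestrus and sequenced on a BGISEQ-500. The authors aligned reads with Bowtie2 2.2.5 to GRCm38.p5 and estimated expression with RSEM 1.2.8, and deposited FPKM per gene, which correct for length and depth and hold no read counts. Whole reads were not recovered (52.9% to 72.3% of low values in a library were whole within 0.2 reads), so no count test was run. Approximated depth was 9660000 to 20100000 reads in 89 libraries, and about 100000 in BAT estrus replicate 3. With 3 libraries per group, small differences in low genes were not detectable.

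Groups came from the sample labels. The 9 genes were taken whatever their values. Genes averaging 1 FPKM or more entered limma 3.58.1 (R 4.3.3) on log2(FPKM + 1) with an intensity trend, and p-values were Benjamini-Hochberg adjusted over all genes tested. A fold change on this scale understates the change of low genes. Tissue contrasts and differences between tissues used 1 fit of 90 libraries. Calls needed an absolute log2 difference of 1 and an adjusted p of 0.05, except that differences between tissues needed the adjusted p alone. Scripts were tested on simulated data. Named genes were all members, a pathway list and a progesterone list (values for called genes, the 3 widest differences and coreceptors), and the 3 genes most like each member. Other genes named were chosen after their values were seen. The members and lists were chosen with earlier results of these data known. Other pseudocounts, filters, scalings, fits, a replicate block and left-out libraries were tried. The deposited matrix was used as it stands.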

Additional observations from a re-analysis of the deposited data

Results flagged for a closer look

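9 of 65 member and tissue pairs held a library whose gap to the nearest other, as a share of the range, exceeded Dixon's 95% critical value of 0.625. Normally distributed values would give about 1 in 20, but the test pooled both phases on FPKM, and its rate over all genes was not computed. Shh in duodenum and Ihh in aorta reached the mean of 1 FPKM only through the flagged library, so the filter itself favoured these flags. In uterus these were Ptch1 at 30.67 FPKM and Gli3 at 3.36, both in diestrus replicate 3. In the gut they were Shh at 13.51 in duodenum estrus replicate 1, which also carried gastric markers, and Ihh at 26.43 in stomach diestrus replicate 1. In the vessels they were Dhh at 15.59 in vein diestrus replicate 2, and Ihh at 4.27 and Smo at 27.86 in aorta estrus replicate 1, the library with the high smooth muscle sum. In fat they were Smo at 29.12 in WAT (white adipose tissue) estrus replicate 1 and Ptch1 at 4.83 in BAT estrus replicate 3, the library of low depth.

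The phase difference differed between tissues for 7 pairs by the interaction test in limma. Between uterus and stomach the log2 differences were -2.60 for Gli1, -2.19 for Ihh, -1.01 for Ptch1 and -0.89 for Gli3. Between uterus and duodenum they were -2.21 for Gli1 and -2.38 for Ihh, and between stomach and duodenum 1.15 for Smo.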

How the results depend on the processing

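With one fit of all 90 libraries, 3 members were called between the phases in uterus and 3 over the 15 tissues, against 0 tissue by tissue, and 908, 359 and 509 genes in uterus, stomach and duodenum against 0. With a pseudocount of 0.1, the members called were 1 lower in uterus and 2 higher and 2 lower in duodenum against the other tissues, and 1 and 0 for the phase difference of uterus against stomach and against duodenum. That setting called 430 genes for uterus against stomach, 614 for uterus against duodenum and 613 for stomach against duodenum (927, 1008 and 1005 otherwise), and 5844 and 5845 in uterus and stomach against the others (3652 and 3770). Scaling libraries to the same median turned Ihh in duodenum to 0.081. Across left-out libraries Ihh in duodenum ranged from -0.22 to 0.046, Smo in uterus from -0.080 to 0.24 and Shh in stomach from -0.16 to 0.34. The members called ranged from 0 to 5 for uterus against stomach, 0 to 3 for uterus against duodenum and 0 to 2 for stomach against duodenum in the phase difference, and from 1 to 2 higher in stomach than duodenum. The genes called ranged from 167 to 4458, 341 to 2769 and 178 to 1830 in those 3 phase differences, 0 to 10 in duodenum, 0 to 2 in uterus and 0 to 1 in stomach between the phases. The settings without single libraries of odd markers were chosen after seeing the data. Same-numbered libraries did not deviate together (r from -0.57 to 0.47), so the numbers do not pair them. The replicate block left 0 members for stomach against duodenum and changed no other member count. The count test was not run. The cause of these shifts was not tested, and leaving out libraries leaves fewer samples.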
